A study of Mus musculus with 6 samples.

Results

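The genes described here are the coreceptor genes Cd4, Cd8a and Cd8b1 and the genes of 6 transcription factors of the choice between the CD4 and CD8 T cell lineages, Gata3, Tox, Runx1, Runx3, Zbtb7b and Patz1. They were chosen by gene name, and all 9 are among the 29626 genes of the deposited counts table. RNA was read from sorted double-positive thymocytes of 8-week-old mice, 3 labelled Kansl1fl/fl CD4-Cre (KANSL1-deficient) and 3 littermates labelled Kansl1fl/fl without Cre (control), whose genotype is also given as WT. Both groups thus carry the floxed Kansl1 gene, and Cre is present in the KANSL1-deficient mice only, so an effect of Cre and one of Kansl1 loss cannot be told apart. The labels name the driver of Cre as CD4. The sources used here do not say whether the Cre construct adds reads to the Cd4 gene. The KANSL1 protein belongs to the NSL complex, which carries the histone acetyltransferase KAT8.

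Double-positive thymocytes carry both coreceptors on their surface, CD4, which binds MHC class II, and CD8, a dimer of CD8A and CD8B1 that binds MHC class I. Both bring the kinase LCK to the T cell receptor. During positive selection a cell keeps one coreceptor and shuts the other. In the mouse, the factor THPOK, encoded by Zbtb7b, drives the CD4 fate, and RUNX3 silences Cd4 and drives the CD8 fate. GATA3 and TOX are needed for CD4 cells to form, RUNX1 silences Cd4 at the double-negative stage before, and PATZ1, also called MAZR, represses the Cd8 genes and Zbtb7b.

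The libraries held between 19361968 and 22459830 counts. CPM values are counts scaled for depth with TMM factors. FPKM values are the authors', scaled for depth and for the length of the gene, and are used for levels between genes. Values are given in the order of replicates 1 to 3 of each group. The targeted gene Kansl1 was read at 145.6, 168.5 and 188 CPM in KANSL1-deficient libraries, against 214, 189 and 230 CPM in control libraries. The groups did not overlap, by a narrow margin, but Kansl1 did not pass the test (log2 fold change -0.33 ± 0.14, SE; edgeR quasi-likelihood test, adjusted p = 0.171, by Benjamini-Hochberg over all tested genes). A deletion of part of the gene can leave reads from its other exons. The counts do not separate exons, so this is a weak check of the labels. All 10 listed double-positive markers were tested, their sum was 9350 CPM or more in every library, and Rag2 and Dntt rose. The lists of markers of other cell types given below each summed to at most 562 CPM in any library.

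Of the 9 genes, 8 passed the filter on low counts and 1 of these, Gata3, passed an adjusted p of 0.05 across all genes tested, where 6.76% of 15353 genes did so and 3.85% did so as higher. Runx3 was just outside the threshold, on the lower side. In sorted cells read in bulk, fewer cells with a transcript and less of it per cell cannot be told apart. Of the 8 tested genes 6 had a positive and 2 a negative log2 fold change, with a median of 0.28, against -0.021 over all tested genes. An unadjusted p under 0.05 was found for 6 of the 8, as for 22.6% of all tested genes. The CPM of the groups did not overlap for 5 of the 8 (Cd8a, Gata3, Tox, Runx1 and Runx3), as for 28.5% of all tested genes. In FPKM the groups overlapped for Cd8a and Runx1 and did not for Gata3, Tox, Runx3 and Patz1. The share of all tested genes without overlap in FPKM was not counted, so these genes cannot be set against it. Abundance moved with the fold changes. All of the 8 but Runx3 are among the 1536 most abundant tested genes, whose own median log2 fold change was 0.20 and of which 13.2% were called higher and 0.260% lower. After removal of each library's trend with abundance the log2 fold change was 0.72 for Gata3, 0.18 for Tox, 0.063 for Runx1, 0.017 for Cd8a, -0.055 for Cd4 and -0.26 for both Cd8b1 and Patz1, and Gata3 alone of these passed (adjusted p = 0.0109). Runx3 lies among 1535 genes of 13.1 to 24.1 CPM, with a median of -0.11, of which 4.37% were called higher and 5.73% lower.

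**Figure D1:**
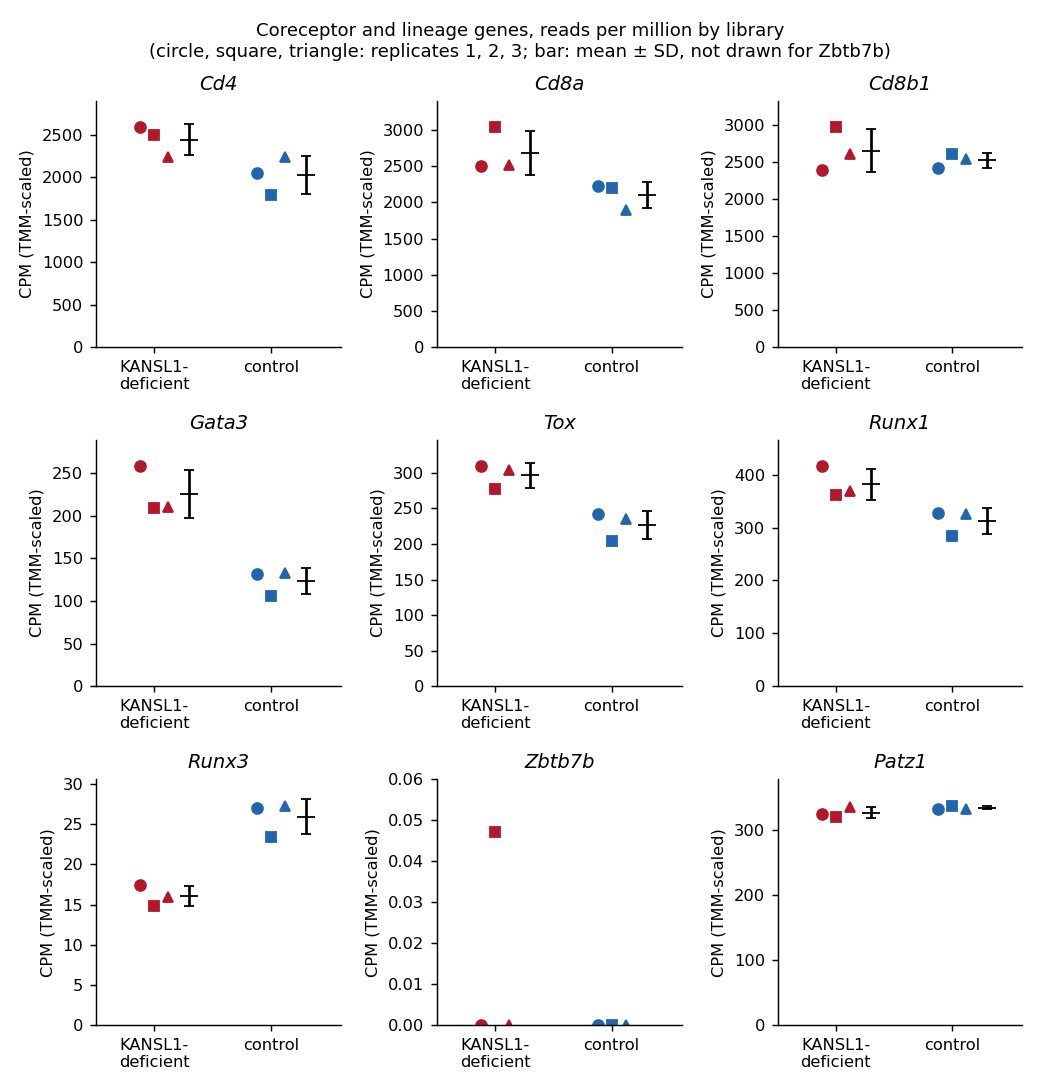
TMM-scaled CPM of each of the 9 genes in the 3 KANSL1-deficient libraries (red, left) and the 3 control libraries (blue, right), with the mean and SD as bars (not drawn for Zbtb7b). Gata3 lies between 209 and 258 CPM in KANSL1-deficient libraries and between 106 and 133 CPM in control libraries, while Runx3 lies lower in all KANSL1-deficient libraries and Zbtb7b was read once in all.

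By FPKM, which corrects for gene length, the coreceptor genes were among the most abundant transcripts of these cells. Cd8b1 averaged 1697 ± 196 FPKM in KANSL1-deficient and 1785 ± 43.0 FPKM in control libraries (SD, n = 3 each), which ranks it 15 and 12 of 29626 genes. Cd8a averaged 701 ± 78.9 FPKM in KANSL1-deficient and 609.5 ± 53.8 FPKM in control libraries, at ranks 29 and 33. Cd4 averaged 573 ± 31.3 FPKM in KANSL1-deficient and 528 ± 64.4 FPKM in control libraries, at ranks 39 and 40. The libraries of Cd8a and Cd4 overlapped in control cells and not in KANSL1-deficient cells. The transcription factor genes followed at a distance. In KANSL1-deficient cells the order was Gata3 (53.8 ± 5.76 FPKM), Patz1 (52.4 ± 2.23), Tox (36.95 ± 2.27), Runx1 (30.1 ± 1.93) and Runx3 (3.04 ± 0.218), and only Gata3 and Patz1 of these neighbours overlapped. In control cells it was Patz1 (59.5 ± 0.577 FPKM), Gata3 (32.65 ± 4.49), Tox (31.4 ± 3.26), Runx1 (27.3 ± 2.56) and Runx3 (5.445 ± 0.5325), where Gata3, Tox and Runx1 overlapped one with the next. Gata3 thus ranked 901 of all genes by mean FPKM in KANSL1-deficient cells and 1640 in control cells, and Runx3 ranked 8300 in KANSL1-deficient and 6879 in control cells. Zbtb7b was last in both groups.

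Among the coreceptors, none of the 3 genes passed the threshold. Cd4 (ENSMUSG00000023274, GRCm39 chromosome 6, 124841655 to 124865184, minus strand) was read at 2587, 2498 and 2237 CPM in KANSL1-deficient libraries, against 2047, 1787 and 2237 CPM in control libraries. The groups met at 2237 CPM, the third library of each, and the log2 fold change was 0.27 ± 0.12 (SE; edgeR, adjusted p = 0.201). Cd8a (ENSMUSG00000053977, chromosome 6, 71350411 to 71356157, plus strand) was read at 2505, 3042 and 2518 CPM in KANSL1-deficient libraries, against 2227, 2198 and 1897 CPM in control libraries. All KANSL1-deficient libraries were above all control libraries, and the log2 fold change was 0.35 ± 0.12 (adjusted p = 0.101). DESeq2, which called 16.1% of the genes it gave an adjusted p, called Cd8a higher (adjusted p = 0.0453), whereas in the authors' deposited table its adjusted p is 0.0510. Cd8b1 (ENSMUSG00000053044, chromosome 6, 71299772 to 71314478, plus strand) was read at 2389, 2968 and 2601 CPM in KANSL1-deficient libraries, against 2412, 2608 and 2534 CPM in control libraries. All control libraries fell inside the range of the KANSL1-deficient ones. The log2 fold change was 0.075 ± 0.11 (edgeR, adjusted p = 0.773), and it was -0.074 with library totals.

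Ratios within a library do not depend on scaling between libraries, and 3 of them were compared. Cd8b1 over Cd8a, the balance of the CD8 chains, was 2.34, 2.39 and 2.53 by FPKM in KANSL1-deficient libraries, against 2.66, 2.91 and 3.275 in control libraries. Every KANSL1-deficient library was below every control library. The difference of the mean log2 ratio was -0.28 (-0.35 to -0.20 with any 1 library left out; exact two-sided permutation test over 20 assignments, p = 0.1, the smallest that 3 against 3 allow, and 0.15 adjusted over the 3 ratios). Cd4 over Cd8a was 0.932, 0.741 and 0.801 in KANSL1-deficient libraries, against 0.829, 0.733 and 1.06 in control libraries, and the groups overlapped. Its log2 difference was -0.075 (exact permutation test, p = 0.7, also after adjustment), and it was 0.074 without control replicate 3, the library with the highest ratio.

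**Figure D2:**
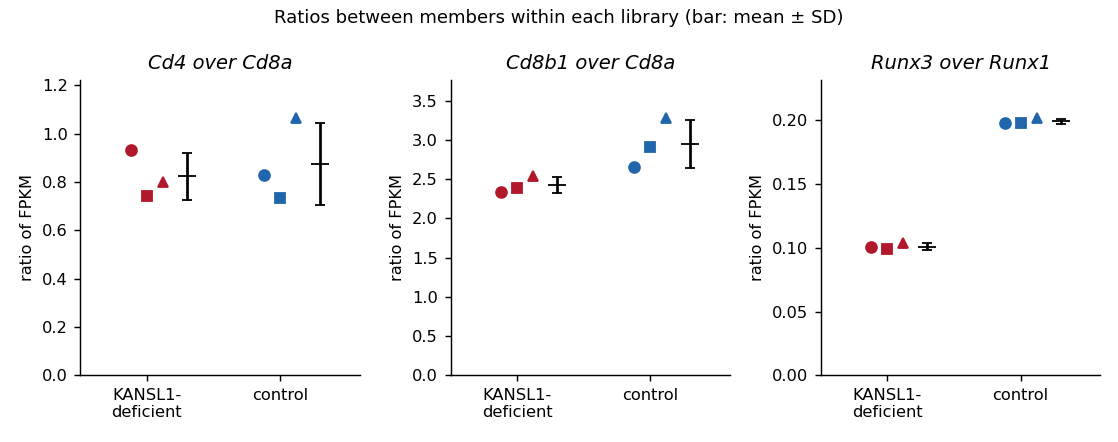
Ratio of the FPKM of Cd4 to Cd8a, Cd8b1 to Cd8a and Runx3 to Runx1 in each KANSL1-deficient library (red, left) and control library (blue, right), with mean and SD. Cd8b1 over Cd8a lies between 2.34 and 2.53 in KANSL1-deficient and between 2.66 and 3.275 in control libraries, and Runx3 over Runx1 between 0.0990 and 0.104 in KANSL1-deficient and between 0.198 and 0.202 in control libraries.

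Of 44 tested genes within 100 kb of any of the 9 genes, 2 rose and 2 fell, against 3.85% and 2.91% of all tested genes. The 44 include Cd8a and Cd8b1, each a neighbour of the other. These lie 35.9 kb apart on the same strand. Of 10 tested genes within 100 kb of Cd8a, with Cd8b1 among them, 0 passed with edgeR, 0 with DESeq2 and 0 with limma-voom. An unadjusted edgeR p under 0.05 was found for 3 of the 10, against 22.6% of all tested genes. The non-coding gene Gm44174, which ends 0.143 kb before Cd8a, had a log2 fold change of 0.58 ± 0.23 (SE; edgeR, adjusted p = 0.161), and Rmnd5a on the other side one of 0.29 ± 0.11 (adjusted p = 0.148). Next to Cd8b1, Smyd1 had a log2 fold change of -0.00018 ± 0.26 (adjusted p = 0.9997) and the non-coding Gm44110 one of 1.46 ± 0.56 (adjusted p = 0.145), on 248 reads in KANSL1-deficient and 95 in control libraries. Around Cd4, 1 of 12 tested genes rose. It was Cdca3, a cell division gene 31.0 kb away, at 85.4 CPM on average in KANSL1-deficient and 24.7 CPM in control libraries (log2 fold change 1.79 ± 0.24, adjusted p = 0.00368), and it was called in all 16 alternatives. The nearest tested gene on each side of Cd4, Gpr162 (0.709 kb) and Lag3 (16.1 kb), had log2 fold changes of -0.032 ± 0.29 and -0.029 ± 0.31 (adjusted p = 0.969 and 0.975). P3h3, beyond Gpr162 at 6.94 kb, had one of 0.74 ± 0.33 and did not pass (adjusted p = 0.2105).

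**Figure D3:**
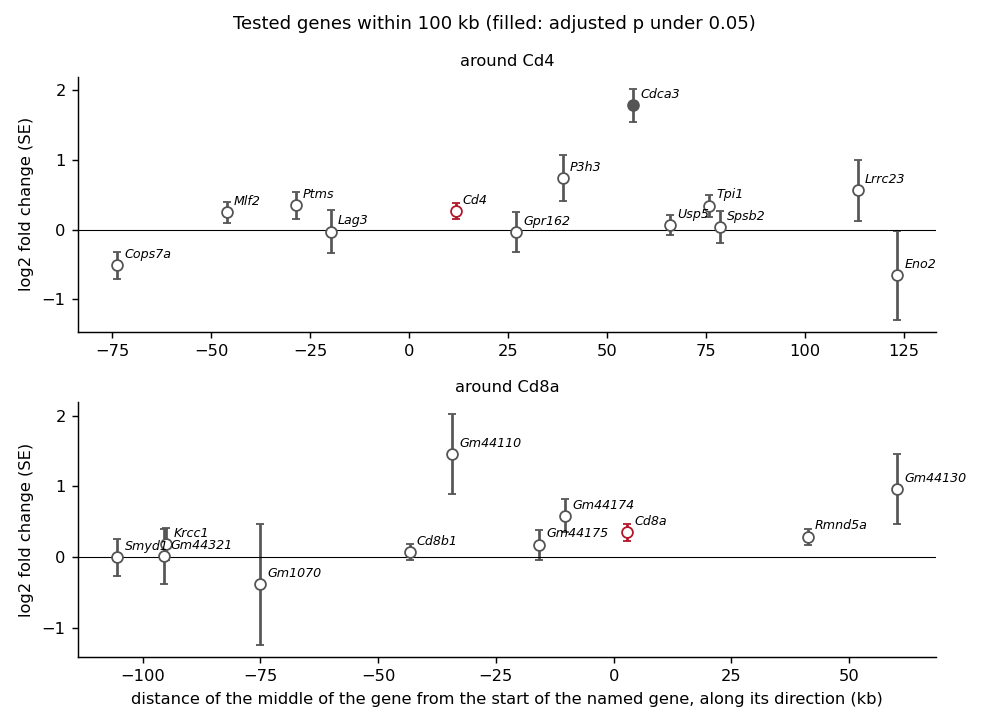
Log2 fold change (KANSL1-deficient over control, bars SE) of tested genes within 100 kb of Cd4 and of Cd8a, against the distance of each gene's middle from the start of Cd4 or Cd8a in kb. Cd4 and Cd8a are in red, and Cdca3 (1.79) is the one filled point, with an adjusted p under 0.05.

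Gata3, whose product acts upstream of Zbtb7b on the way to the CD4 fate, rose. The gene (ENSMUSG00000015619, chromosome 2, 9861889 to 9894845, minus strand) was read at 258, 209 and 210.5 CPM in KANSL1-deficient libraries, against 131, 106 and 133 CPM in control libraries. The lowest KANSL1-deficient library stood well above the highest control library, and the averages were 226 ± 27.9 CPM in KANSL1-deficient and 123 ± 15.3 CPM in control libraries (SD, n = 3 each). This is a log2 fold change of 0.87 ± 0.14 (SE), or a fold of 1.83 (edgeR quasi-likelihood test, adjusted p = 0.00644). All 16 alternatives called it, the 6 with a library left out included, with log2 fold changes of 0.71 to 0.93 and adjusted p of 1.32e-06 to 0.0367. The authors' deposited table gives the same fold and an adjusted p of 1.56e-06, and does not mark the gene, as its marks ask for a 2-fold change. Reads of the overlapping antisense gene Gm13256 came to 0.313% of those of Gata3. The nearest tested genes, Gm13262 (16.1 kb) and Taf3 (24.5 kb), did not pass, with log2 fold changes of -1.53 ± 1.34 and -0.22 ± 0.17 (edgeR, adjusted p = 0.5675 and 0.501).

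Tox, a nuclear factor induced at positive selection, was read at 309, 277 and 304 CPM in KANSL1-deficient libraries, against 242, 204 and 235 CPM in control libraries (ENSMUSG00000041272, chromosome 4, 6686353 to 6991557, minus strand). The groups did not overlap, yet the log2 fold change of 0.39 ± 0.12 (SE) did not pass with edgeR (adjusted p = 0.0758). DESeq2 called it higher (adjusted p = 0.0273), and the other 15 alternatives did not. In the authors' deposited table its adjusted p is 0.0312, where 14.9% of the genes given an adjusted p are under 0.05. The antisense gene Gm11802 inside Tox held 1.36% as many reads as Tox.

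The log2 fold changes of the RUNX genes had opposite signs, and neither gene passed. Runx1 (ENSMUSG00000022952, chromosome 16, 92398354 to 92623037, minus strand), whose product shuts Cd4 in double-negative cells, was read at 416, 361 and 370 CPM in KANSL1-deficient libraries, against 327, 283.5 and 325 CPM in control libraries. The groups did not overlap, and the log2 fold change was 0.29 ± 0.12 (SE; edgeR, adjusted p = 0.169), called by none of the 16 alternatives. The overlapping Gm26626 held 0.837% as many reads. Runx3 (ENSMUSG00000070691, chromosome 4, 134847963 to 134905301, plus strand) was read at 17.4, 14.85 and 16.0 CPM in KANSL1-deficient libraries, against 27.0, 23.4 and 27.3 CPM in control libraries. These values rest on 353, 315 and 319 reads in KANSL1-deficient libraries and 558, 531 and 620 reads in control libraries, and every KANSL1-deficient library was below every control library. The mean was 16.1 ± 1.26 CPM in KANSL1-deficient and 25.9 ± 2.17 CPM in control libraries (SD, n = 3 each).

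The log2 fold change of Runx3 was -0.69 ± 0.19 (SE), a fold of 0.621, and its adjusted p of 0.0522 with edgeR was just outside the threshold. It was lower and past the threshold under 5 of 16 alternatives: library totals (adjusted p = 0.0232), a filter at 5 CPM (0.0301), DESeq2 (0.0106), limma-voom (0.0496) and log2 of FPKM plus 0.1 (0.0497). Of the genes given an adjusted p these called 8.64%, 15.7%, 16.1%, 7.99% and 5.63%, in that order. Library totals moved the median log2 fold change of all genes by -0.15, and log2 of FPKM plus 0.1 by -0.13. With any 1 library left out Runx3 did not pass (0 of 6 fits, adjusted p of 0.0819 to 0.185), though its log2 fold change stayed between -0.78 and -0.63. Runx3 also missed the threshold with each library's abundance trend taken out (-0.59, adjusted p = 0.0940) and with replicate blocks (-0.69, adjusted p = 0.121). In the authors' deposited table its adjusted p is 0.0116. The ratio of Runx3 to Runx1 by FPKM was 0.1004, 0.0990 and 0.104 in KANSL1-deficient libraries, against 0.198, 0.198 and 0.202 in control libraries. The libraries of each group lay close together and far from those of the other. The log2 difference was -0.98 (-0.9995 to -0.96 with any 1 library left out). By exact two-sided permutation test p was 0.1, the smallest possible, and 0.15 adjusted over the 3 ratios. This ratio was not corrected for the trend with abundance. Runx1 lies among abundant genes with a median log2 fold change of 0.20, and Runx3 among genes with one of -0.11. With that trend taken out, Runx1 was at 0.063 and Runx3 at -0.59. The one tested gene within 100 kb of Runx3, Clic4, an intracellular chloride channel gene 36.0 kb away, rose and was called in all 16 alternatives (log2 fold change 0.88 ± 0.15, adjusted p = 0.00728), and the antisense gene Gm16224 inside Runx3 held 7 reads in all.

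**Figure D4:**
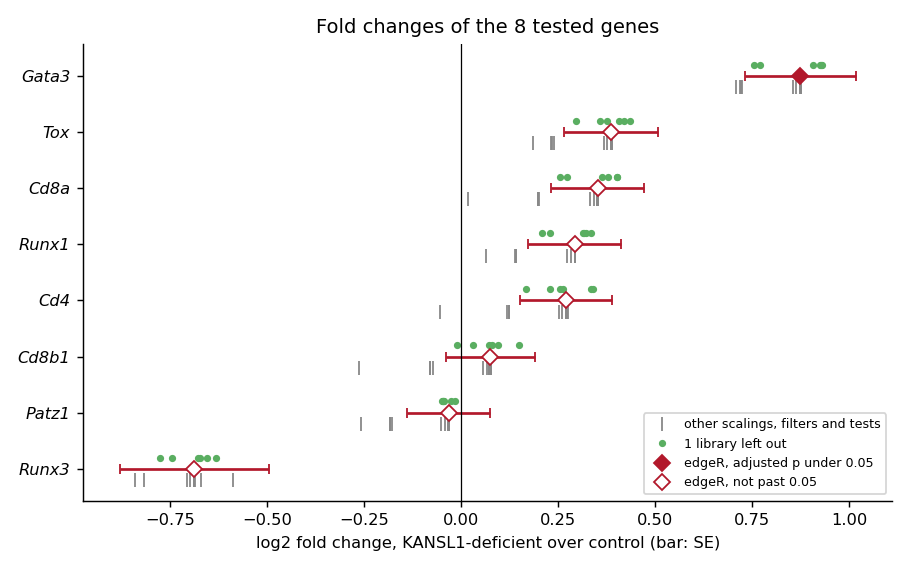
Log2 fold change (KANSL1-deficient over control) of the 8 tested genes with SE bars. Gata3 (0.87) is filled as past the adjusted threshold, Runx3 (-0.69) lies alone at the negative end, and grey ticks and green points give the values under other settings and with 1 library left out.

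Runx3 is transcribed from a distal and a proximal promoter, and in mouse thymocytes the distal one is known for its use in CD8 lineage cells. The counts are sums over the whole gene and cannot separate them. Their sequences are shown because RUNX proteins are known to bind the motif TGTGGT, and also its variant TGCGGT. With that of Gata3, they are the promoters of the genes with the largest differences. Each is the 250 bases before a RefSeq start in GRCm38.p6, a build other than that of the counts, on the strand of the gene. Capitals mark a match, on either strand, to one of these or to the GATA motif AGATAA.
Runx3 distal (chr4:135120395-135120644, plus strand): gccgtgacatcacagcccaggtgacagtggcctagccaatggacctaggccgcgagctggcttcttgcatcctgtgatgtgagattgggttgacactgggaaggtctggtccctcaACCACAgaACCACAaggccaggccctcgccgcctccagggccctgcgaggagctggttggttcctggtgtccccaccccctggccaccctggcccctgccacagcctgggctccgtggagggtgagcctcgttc
Runx3 proximal (chr4:135152295-135152544, plus strand): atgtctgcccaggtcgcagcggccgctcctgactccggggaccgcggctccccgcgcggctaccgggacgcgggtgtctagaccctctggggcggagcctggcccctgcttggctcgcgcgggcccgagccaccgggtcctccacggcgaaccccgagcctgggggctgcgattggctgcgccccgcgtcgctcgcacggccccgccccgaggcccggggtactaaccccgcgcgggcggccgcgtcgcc
Gata3 (chr2:9878601-9878850, minus strand): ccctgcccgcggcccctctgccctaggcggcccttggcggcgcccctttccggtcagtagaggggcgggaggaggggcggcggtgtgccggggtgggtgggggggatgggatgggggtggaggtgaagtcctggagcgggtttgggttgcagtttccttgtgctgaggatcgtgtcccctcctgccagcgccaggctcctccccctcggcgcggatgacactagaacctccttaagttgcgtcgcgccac
The distal Runx3 window holds a pair of matches to the first motif on the strand opposite to the gene, 134 and 126 bases before the start. The proximal window and the Gata3 window hold no match to any of the motifs. The table gave 10 windows for 6 of the 9 genes, and 2 of the 10, the distal Runx3 window and one of Zbtb7b, held a RUNX match, while none held AGATAA. Over 32851 RefSeq promoters, 14.05% held TGTGGT, while 5.10% held TGCGGT, with 18.6% holding at least one of them. The GATA motif was in 9.99%.

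Zbtb7b (ENSMUSG00000028042, chromosome 3, 89284951 to 89302083, minus strand) was at the limit of detection in both groups. It was read 0, 1 and 0 times in KANSL1-deficient libraries and 0 times in each control library, and no fold is given. The 95% Poisson interval reaches up to 0.0858 CPM in KANSL1-deficient and 0.0586 CPM in control cells, and covers counting error only. Of 8 tested genes within 100 kb of it, 2 fell, against 2.91% of all tested genes. They were Flad1, an FAD synthase gene (log2 fold change -0.80 ± 0.22, edgeR, adjusted p = 0.0468), and Pbxip1 (-0.60 ± 0.14, adjusted p = 0.0243). The nearest tested gene on the other side, Adam15, had 49 reads in KANSL1-deficient and 183 in control libraries and did not pass (-1.82 ± 0.90, adjusted p = 0.257). With 1 library left out, Flad1 was called in 0 and Pbxip1 in 1 of 6 fits, and Flad1 did not pass after removal of the abundance trend (-0.71, adjusted p = 0.0669).

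Patz1 (ENSMUSG00000020453, chromosome 11, 3238874 to 3259083, plus strand) encodes a zinc finger repressor and did not pass. It was read at 324.5, 319.5 and 335 CPM in KANSL1-deficient libraries, against 332, 337 and 332 CPM in control libraries, and the groups overlapped. Its log2 fold change was -0.033 ± 0.11 (SE; edgeR, adjusted p = 0.9075). Its FPKM was 51.1, 51.1 and 55.0 in KANSL1-deficient libraries, against 60.1, 59.0 and 59.3 in control libraries, without overlap. With library totals the log2 fold change was -0.18 (adjusted p = 0.331), while that scaling moved the median of all genes by -0.15. The overlapping gene Gm11944, on the same strand, held 4.46% as many reads as Patz1. Its tested neighbours Drg1 and Pik3ip1 had log2 fold changes of 0.35 ± 0.12 and 0.36 ± 0.11 (edgeR, adjusted p = 0.1095 and 0.0760).

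Around these genes, 57 different genes of 6 lists were tested, of which 7 rose and 1 fell, against 3.85% and 2.91% of all tested genes. Among the 1536 most abundant tested genes, which include the risers Ets1, Ikzf1, Dnmt1, Ptpn22 and Socs1, 13.2% were called higher. Of 23 listed regulators of the Cd4 and Cd8 genes 3 rose and 0 fell, and their median was 0.079 on the log2 scale, against -0.021 over all tested genes. Ets1, which activates T cell genes, was read at 3297, 3239 and 2862 CPM in KANSL1-deficient libraries, against 2059, 2137 and 2551 CPM in control libraries (log2 fold change 0.48 ± 0.12, SE; edgeR, adjusted p = 0.0343). Ikzf1, which encodes Ikaros, also rose (0.43 ± 0.11, adjusted p = 0.0343), and Dnmt1, the maintenance DNA methyltransferase, by 0.82 ± 0.18 (adjusted p = 0.0206). Cbfb, the partner of the RUNX proteins, averaged 84.3 ± 9.56 CPM in KANSL1-deficient and 66.5 ± 20.2 CPM in control libraries and did not pass (0.34 ± 0.21, adjusted p = 0.377), nor did Tcf3, which encodes E2A (0.064 ± 0.16, adjusted p = 0.877). Ets1 and Ikzf1 are abundant, and after removal of the abundance trend they were at 0.146 and 0.148 and did not pass (adjusted p = 0.472 and 0.449), nor did they with library totals (0.33 and 0.28, adjusted p = 0.1004 and 0.118). Dnmt1 passed under both (0.69 and 0.67).

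Of 6 genes for the kinase of the coreceptors and its regulators, Ptpn22, a phosphatase that acts on LCK, rose, at 395.5, 412 and 340 CPM in KANSL1-deficient libraries against 237, 233 and 284 CPM in control libraries. Its log2 fold change was 0.61 ± 0.13 (edgeR, adjusted p = 0.0196), and the median of the list was 0.34. Lck itself averaged 3113 ± 315 CPM in KANSL1-deficient and 2330 ± 474 CPM in control libraries, which did not pass (0.42 ± 0.15, adjusted p = 0.105), and Unc119 had a log2 fold change of -0.77 ± 0.54 (adjusted p = 0.453). Of 10 tested genes of interleukin 7 and common gamma chain signalling, whose input favours the CD8 fate, Socs1, an inhibitor of cytokine signalling, rose. It was read at 428, 473 and 498 CPM in KANSL1-deficient libraries against 226, 343 and 303 CPM in control libraries (log2 fold change 0.68 ± 0.15, adjusted p = 0.0229). The receptor gene Il7r was not tested, with 1 read in KANSL1-deficient and 27 reads in control libraries, and Il2rg, the common gamma chain gene, had a log2 fold change of -0.0060 ± 0.12 (adjusted p = 0.986).

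Of 5 tested CD8 lineage genes 1 rose and 1 fell, and the median was -1.38 on the log2 scale. Prf1, which encodes perforin, was read at 6.94, 6.65 and 10.6 CPM in KANSL1-deficient libraries against 17.65, 20.03 and 25.2 CPM in control libraries (-1.38 ± 0.26, adjusted p = 0.0119). Gzma, which encodes granzyme A, was read at 72.1, 32.3 and 39.25 CPM in KANSL1-deficient libraries against 16.1, 22.6 and 26.6 CPM in control libraries (1.14 ± 0.29, adjusted p = 0.0376), so these cytotoxic genes went opposite ways. The CD8 lineage factor genes Eomes and Tbx21 were not tested, with 5 and 39 reads in KANSL1-deficient libraries and 5 each in control libraries. Of 8 tested CD4 lineage genes Icos, a costimulatory receptor gene, rose, at 61.3, 54.1 and 48.7 CPM in KANSL1-deficient libraries against 24.96, 29.4 and 33.65 CPM in control libraries (0.90 ± 0.18, adjusted p = 0.0137), and the median was 0.061. Cd40lg was read 20 times in KANSL1-deficient and 0 times in control libraries, and Il6ra had a log2 fold change of -0.024 ± 0.50. Of 6 tested relatives of the 9 genes, 0 passed by any of edgeR, DESeq2 and limma-voom, and 0 reached an unadjusted edgeR p of 0.05. Among them were Runx2 (0.21 ± 0.40) and Tox2 (-0.67 ± 0.53). The count of 8 called genes in the 6 lists varied with the library left out. It was 0, 1 and 4 without KANSL1-deficient replicates 1, 2 and 3, and 4, 2 and 6 without control replicates 1, 2 and 3, where 15 to 20 had an unadjusted p under 0.05. Over those 6 fits Prf1 was called in 4, Socs1 and Icos in 3 each, Dnmt1 and Ptpn22 in 2 each, Ets1 and Gzma in 1 each and Ikzf1 in 0. After removal of the abundance trend Ptpn22 (0.39, adjusted p = 0.0783) and Socs1 (0.47, adjusted p = 0.0789) did not pass either, and with library totals Gzma did not (0.98, adjusted p = 0.0535).

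**Figure D5:**
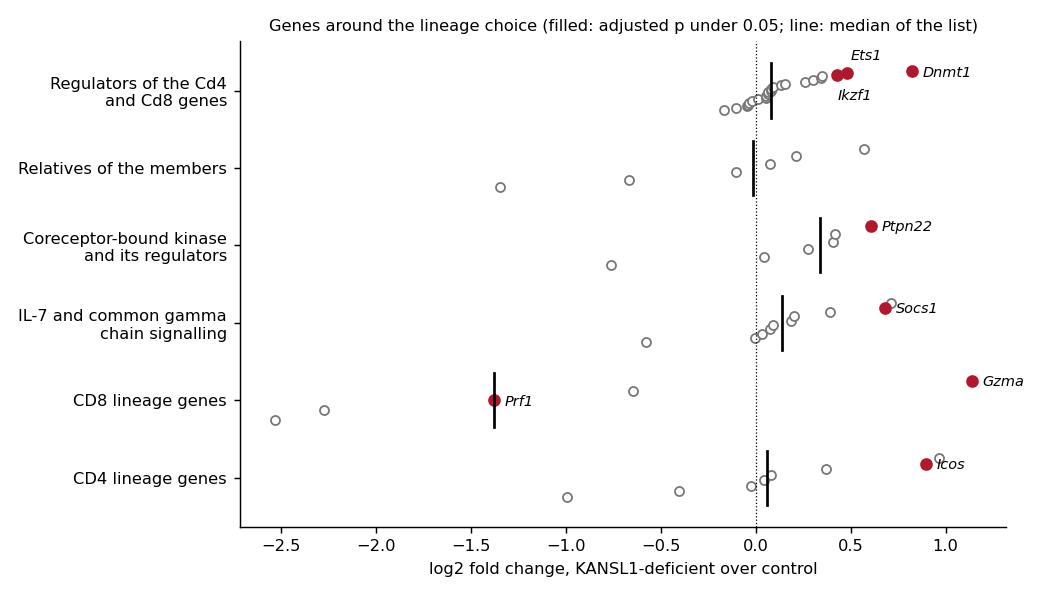
Log2 fold change (KANSL1-deficient over control) of the tested genes of 6 lists around the lineage choice, with the median of each list as a line. Filled points have an adjusted p under 0.05, and Icos (0.90), Gzma (1.14) and Prf1 (-1.38) lie farthest from 0 among them.

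Markers of the stages after double-positive were read beside these results. The 5 listed CD8 single-positive markers other than Runx3 summed to 10.1 to 14.1 CPM in KANSL1-deficient and 10.3 to 15.8 CPM in control libraries. Most of that sum was Ctsw, at 10.7 CPM on average in KANSL1-deficient and 8.90 CPM in control libraries. Itgae, the integrin gene of CD103, had 24 reads in KANSL1-deficient and 127 in control libraries, without overlap in CPM, and Cd160 had 89 reads in KANSL1-deficient and 149 in control libraries. The log2 fold changes of the 3 tested markers, Itgae (-2.27 ± 0.75, adjusted p = 0.0900), Cd160 (-0.64 ± 0.50) and Ctsw (0.26 ± 0.30), did not pass, and their median was -0.64. Nkg7 and Eomes were at 0 and 5 reads in KANSL1-deficient and 3 and 5 reads in control libraries. A set of 5 CD4 single-positive markers, Zbtb7b among them, summed to 41.7 to 55.0 CPM in KANSL1-deficient and 29.9 to 38.3 CPM in control libraries. Regulatory T cell markers summed to 275 to 326 CPM in KANSL1-deficient and 192 to 206 CPM in control libraries. Among them Ikzf2 was higher (0.73 ± 0.13, adjusted p = 0.00829), and Foxp3 had 1 read in KANSL1-deficient and 3 reads in control libraries. The other tested ones, Ctla4 (0.59 ± 0.21), Il2ra (0.49 ± 0.29), Tnfrsf18 (-0.16 ± 0.22) and Tnfrsf4 (-0.41 ± 0.71), did not pass. B cell markers summed to 494 to 562 CPM in KANSL1-deficient and 291 to 407 CPM in control libraries, with Ighm higher. The other tested ones, Cd79a (0.024 ± 0.83), Cd79b (-0.15 ± 0.19) and Ebf1 (0.80 ± 0.97), did not pass. Cd79a had 35 reads in KANSL1-deficient and 37 in control libraries, and Cd79b had 2841 and 3420. Double-negative markers summed to 94.65 to 121 CPM in KANSL1-deficient and 78.7 to 88.8 CPM in control libraries, and 0 of 6 passed by edgeR, DESeq2 or limma-voom. The part of such cells in the differences of Gata3 and Runx3 was not tested.

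For each tested gene the most similar patterns were sought among 9738 other genes with at least 5 CPM, by the root mean square difference of centred log2 CPM over the 6 libraries. Nearest to Gata3 were Clic4 (0.055) and F2r (0.063), the thrombin receptor gene, both of which rose, and nearest to Runx3 was Tex264 (0.036), which fell. Cd4 was closest to A130010J15Rik and Fut8, Cd8a to Ptp4a3 and Gramd1a, and Cd8b1 to the glycolytic genes Gpi1 and Pgk1. Tox was closest to Supt5 and Crot, Runx1 to Cnot1 and Pknox1, and Patz1 to Pdhb and R3hcc1. Clic4, F2r and Tex264 had log2 fold changes of 0.88, 0.85 and -0.65, and the 12 genes named for the other members of the set did not pass.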

How the data were processed

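Polyadenylated RNA of flow-sorted thymocytes was sequenced, per the labels' protocols. The submitters' processing notes name GRCm39 and the tools STAR, featureCounts and DESeq2. The sources used here give neither their versions nor a strand setting, so reads of overlapping genes may be shared. The authors deposited whole-number counts per gene, FPKM for the same genes, and their comparison of KANSL1-deficient over control: a mean normalized signal, a fold change as a ratio, its log2 and a p-value with adjusted p-value. FPKM divided by counts gave 1 length per gene in all 6 libraries.

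Counts were tested with edgeR 4.0.16 (R 4.3.3; quasi-likelihood, TMM, minimum count 10 and total 15, robust shrinkage, Benjamini-Hochberg over 15353 genes, threshold 0.05). The SE of a log2 fold change is its size over the square root of F. Ratios used exact permutation over 20 assignments. Alternatives were other scalings, filters, DESeq2 1.42.0, limma 3.58.1 (voom, or log2 FPKM plus 1 or 0.1), removal of each library's trend with abundance, replicate blocks and each library left out. The test was checked on simulated data. Groups came from the sample titles, and no library was left out. The labels number mice within a group but do not say more, every pair of libraries differed beyond counting noise, and p-values measure the spread between these mice. Gene lists are textbook sets for this stage. The 9 genes and the lists were chosen with earlier results of these data known.

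Named genes were the 9, list members past the threshold and up to 2 others per list in list order, the nearest tested neighbours and those within 100 kb past the threshold, and the 2 most similar genes for each. Counts over the lists and neighbours under each alternative were added after seeing the data. Promoters are from RefSeq (GRCm38.p6). Some genes that these rules and lists name are not reported here.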

Additional observations from a re-analysis of the deposited data

How the results depend on the processing

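Gata3 was higher and past the threshold under all 16 alternatives. The number of the 9 genes past the threshold was 1 with edgeR. It was 2 with library totals, 2 with a filter at 5 CPM, 2 with limma-voom and 2 with log2 of FPKM plus 0.1, where Runx3 was added, and 4 with DESeq2 (Gata3, Runx3, Tox and Cd8a). Of all genes tested, 6.76% passed with edgeR, 8.64% with library totals, 15.7% with the filter at 5 CPM, 7.99% with limma-voom and 5.63% with log2 of FPKM plus 0.1, and 16.1% of those DESeq2 gave an adjusted p. With any 1 library left out it was 1. Signs turned for Cd8b1 (0.075 with edgeR), to -0.074 with library totals, -0.079 with log2 of FPKM plus 1 or plus 0.1, -0.26 after removal of the abundance trend and -0.011 to 0.15 with 1 library left out, the lowest without KANSL1-deficient replicate 2. That of Cd4 turned to -0.055 after removal of the abundance trend, where Cd8a was at 0.017 and Runx1 at 0.063. The log2 ratio of Cd4 to Cd8a was between -0.19 and 0.074 with 1 library left out. Library totals moved the median log2 fold change of all genes by -0.15, and log2 of FPKM plus 0.1 by -0.13. The share of called genes that were higher was 56.9% with TMM, 27.7% with library totals, 31.55% with log2 of FPKM plus 1 and 69.6% without KANSL1-deficient replicate 1.

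Over all genes, 1038 passed with edgeR, 1729 with no filter and 2040 with DESeq2, and 283 to 811 with 1 library left out. Of the genes of the 6 surrounding lists 8 passed, against 13 with no filter, 12 with DESeq2, 2 with log2 of FPKM plus 1 or 0.1, 5 after removal of the abundance trend and 0 to 6 with 1 library left out. Of the neighbouring genes 4 passed, against 6 with DESeq2 and 2 to 3 with 1 library left out. The cause of these differences was not tested. The fits without a library had both fewer samples and another set of libraries, and these cannot be told apart. With the replicate number as a block, 406 genes, 1 of the 9 (Gata3, adjusted p = 0.0239), 2 of the lists and 2 neighbours passed. Deviations of same-numbered libraries correlated at -0.049, -0.024 and -0.095 across genes. Such values cannot show whether same-numbered mice shared a litter or a day, and the labels do not say. Zbtb7b had too few reads at this depth for a fold to be given.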
